A study of Homo sapiens with 9 samples.

Results

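ATP-binding cassette (ABC) transporters form 1 of the largest families of membrane proteins, and several of them pump anticancer drugs out of cells. The family was read here in RNA-Seq of OVCAR4 cells, an established human line of high-grade serous ovarian cancer. Members were the rows of the gene count table whose Ensembl ID belongs to a protein-coding gene with a symbol made of ABC, a subfamily letter from A to G and a number. Of the 61487 genes in the table, 46 symbols had that form and 45 of them were protein coding. Of these, 3 are not reported here, so 42 members remained, and they were compared by subfamily. Each of the 3 groups had 3 libraries. Inhibitor-treated cells were Pt-resistant OVCAR4 cells given the compound EPZ015666, which blocks PRMT5, an enzyme that methylates arginines in proteins, at a dose of 5 uM over 5 days. Pt-resistant cells were the same cisplatin-resistant derivative under DMSO, the solvent, and naive cells were parental OVCAR4 cells, never made resistant to platinum, also under DMSO. The labels give the genotype of every library as WT. The resistant derivative is a single cell line, and the replicates were wells of a plate, so a p-value below reflects how far wells differ, and part of that may be technical.

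An ABC transporter binds and hydrolyses ATP at cassettes inside the cell and uses the energy to move a substrate across a membrane. Members of subfamily A mostly move lipids, subfamily B works at the plasma membrane, in mitochondria and in lysosomes, and subfamily C holds the multidrug resistance proteins, which export conjugated drugs and metabolites. Subfamily D mostly imports fatty acids into peroxisomes, subfamily G exports sterols and drugs, and subfamilies E and F have ATP-binding cassettes but no membrane part and act on ribosomes. Export of drugs by ABCB1, ABCC1 and ABCG2 is a classical mechanism of multidrug resistance in cancer cells.

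Library totals ran from 14320929 to 19114811 counts, and replicates differed by more than sampling noise, with chi-square values of 5.20 to 11.4 per degree of freedom. Of 10 markers of serous and other epithelial cells, 9 could be tested, and WT1 stayed near 0, at means of 0.223 CPM (counts scaled to the library total) in inhibitor-treated, 0.318 in Pt-resistant and 0.25 in naive cells. The summed level of the 10 was 3272 to 3348 CPM in inhibitor-treated, 3969 to 4082 in Pt-resistant and 4050 to 4325 in naive libraries. KRT7 was its largest part, at means of 1638 CPM in inhibitor-treated, 2333 in Pt-resistant and 1929 in naive cells. At an adjusted p under 0.05, 1 of the 9 was higher and 5 lower in Pt-resistant than naive cells (66.7%, against 59.1% of all genes tested). With the inhibitor, 3 were higher and 5 lower (88.9%, against 62.4%). Of 10 markers of fibroblasts, endothelium and immune cells, 5 could be tested. Their sum was 95.6 to 110.1 CPM in inhibitor-treated, 127 to 133 CPM in Pt-resistant and 142 to 159 CPM in naive libraries, and most of it came from the endothelial genes PECAM1 and CDH5. The list did not move as one: 2 of its genes were higher and 3 lower in Pt-resistant than naive cells, and 2 were higher and 2 lower with the inhibitor. The 2 that were higher with the inhibitor, named after their values were seen, were COL1A1 of fibroblasts and PTPRC of leukocytes. COL1A1 averaged 10.2 CPM in inhibitor-treated, 3.83 CPM in Pt-resistant and 6.94 CPM in naive cells (log2 fold change 1.42 ± 0.17 for inhibitor against DMSO, edgeR adjusted p = 1.04e-07). PTPRC had 53 counts over the inhibitor-treated, 2 over the Pt-resistant and 14 over the naive group (edgeR adjusted p = 1.28e-06 for inhibitor against DMSO). PTPRC passed the filter on low counts through inhibitor-treated cells only, so its difference was partly built in by the filter. Of the 5 that could not be tested, COL3A1 and CD3E had at most 2 counts in a library. PDGFRB had 31 counts over the inhibitor-treated, 8 over the Pt-resistant and 9 over the naive group, CD68 had 24, 4 and 15 and LYZ 16, 3 and 1 in the same order of groups. Mitochondrial mRNAs took 6.26% to 8.32% of counts in inhibitor-treated, 4.45% to 5.19% in Pt-resistant and 5.97% to 7.82% in naive libraries. These sums, single markers and shares moved with the groups, and their part in the results below was not tested. In such bulk samples, fewer cells that make an mRNA and less mRNA per cell cannot be told apart.

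Of the 42 members, 25 passed the filter on low counts and were tested among 14630 genes, and 17 were not. Of the tested members, 21 passed the filter in each group alone. The others were ABCA12 and ABCG2, which passed through inhibitor-treated cells only, ABCC2, which did not pass in naive cells, and ABCG4, which passed through naive cells only, so a difference in those 4 was partly built in by the filter. No count was found in any library for 5 members, namely ABCA6, ABCC8, the bile salt exporter ABCB11, and ABCG5 and ABCG8, which pair to export plant sterols. Counts too low to test were found for the other 12. ABCB1, or P-glycoprotein, the best known drug efflux pump, had 1, 0 and 2 counts in inhibitor-treated libraries and none in the 3 Pt-resistant or the 3 naive libraries. A count of 0 over a group allows up to 0.0549 CPM in Pt-resistant cells and up to 0.0625 CPM in naive cells, so ABCB1 mRNA was not detectable at this depth in either. ABCD2, a peroxisomal fatty acid transporter, had 6, 9 and 7 counts in inhibitor-treated libraries, 0, 1 and 2 in Pt-resistant libraries and 0 in each naive library. ABCA13 had 2, 0 and 0 counts in inhibitor-treated libraries, 5, 2 and 3 in Pt-resistant libraries and 0, 1 and 0 in naive libraries. ABCC6 had at most 9 counts in a library and ABCC11 at most 6.

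Levels were compared between genes as CPM per kb of exon. The same 5 members were highest in every group, and none of them is a plasma membrane drug pump. ABCE1, which splits ribosomes after translation, led with 35.4 CPM per kb in inhibitor-treated, 34.6 in Pt-resistant and 29.1 in naive cells. It was followed by the peroxisomal transporter ABCD3, at 21.2 CPM per kb in inhibitor-treated, 20.1 in Pt-resistant and 24.5 in naive cells. The ribosome-associated ABCF1, ABCF2 and ABCF3 made up the rest. These 5 genes held 71.8% of the summed CPM per kb of the members in inhibitor-treated, 70.9% in Pt-resistant and 72.1% in naive cells. The order of ABCF2 and ABCF3 differed between the groups, since ABCF3 was ahead in inhibitor-treated cells (12.7 against 9.22 CPM per kb) and in Pt-resistant cells (12.5 against 9.78) and behind in naive cells (9.59 against 11.5). At the other end, ABCA12, ABCB6, ABCC2, ABCG2 and ABCG4 lay under 0.5 CPM per kb in all groups. The sum of CPM over all members was 808 to 845 in inhibitor-treated, 779.96 to 833 in Pt-resistant and 756 to 806 in naive libraries. Pt-resistant libraries thus overlapped both other groups, while all inhibitor-treated libraries lay above the naive ones, by a narrow margin.

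**Figure D1:**
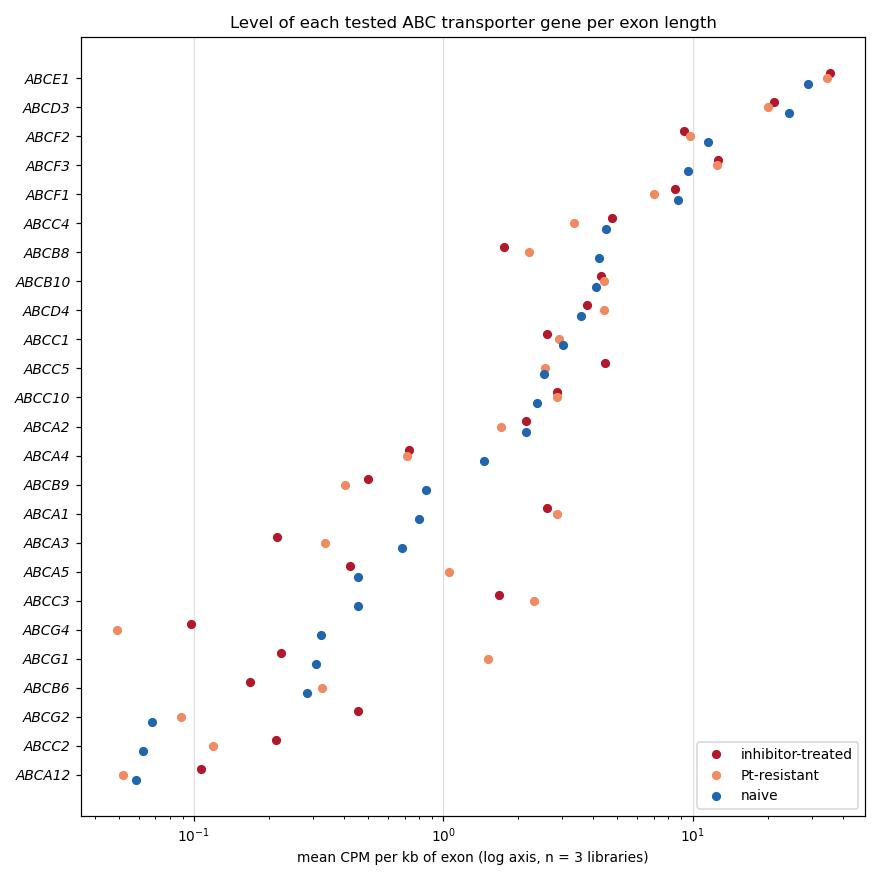
Mean level of the 25 tested ABC transporter genes, in CPM per kb of exon on a log axis, with 1 point per group (n = 3 libraries each). ABCE1 is highest in every group, while ABCA1, ABCC3, ABCG1 and ABCG2 show groups that lie far apart.

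Between Pt-resistant and naive cells, 19 of the 25 tested members passed an adjusted p of 0.05 (edgeR quasi-likelihood test, Benjamini-Hochberg over all 14630 genes), 9 higher and 10 lower. This is 76% of the tested members, against 59.1% of all genes tested (29.8% higher and 29.4% lower). At a change of at least 2-fold, 4 members were higher and 4 lower, against 15.9% of all genes (6.73% higher and 9.13% lower). The groups did not overlap for 18 members, against 62.5% of all genes. With the inhibitor against DMSO in Pt-resistant cells, 13 of 25 members (52%) passed, 6 higher and 7 lower, against 62.4% of all genes (31.9% higher and 30.5% lower). Only 3 of them changed at least 2-fold, ABCG2 being higher and ABCA5 and ABCG1 lower, against 17.9% of all genes (11.4% higher and 6.51% lower), and 14 members did not overlap, against 66.5%. In inhibitor-treated Pt-resistant against naive cells, 16 of 25 (64%) passed, 8 higher and 8 lower, against 63.4% of all genes (32.2% higher and 31.2% lower). Of these 16, 4 were at least 2-fold higher and 4 at least 2-fold lower, against 19.8% of all genes (10.7% higher and 9.15% lower), and 17 members did not overlap, against 66.4%. The share of members called was thus above that of all genes in the first comparison, below it in the second and near it in the third. The median log2 fold change of the members was 0.01 in the first comparison, 0.02 in the second and 0.00 in the third, close to 0 like that of all genes. The first and second comparisons share the Pt-resistant libraries, and each of them shares a group with the third, so their values are given side by side and are not independent.

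**Figure D2:**
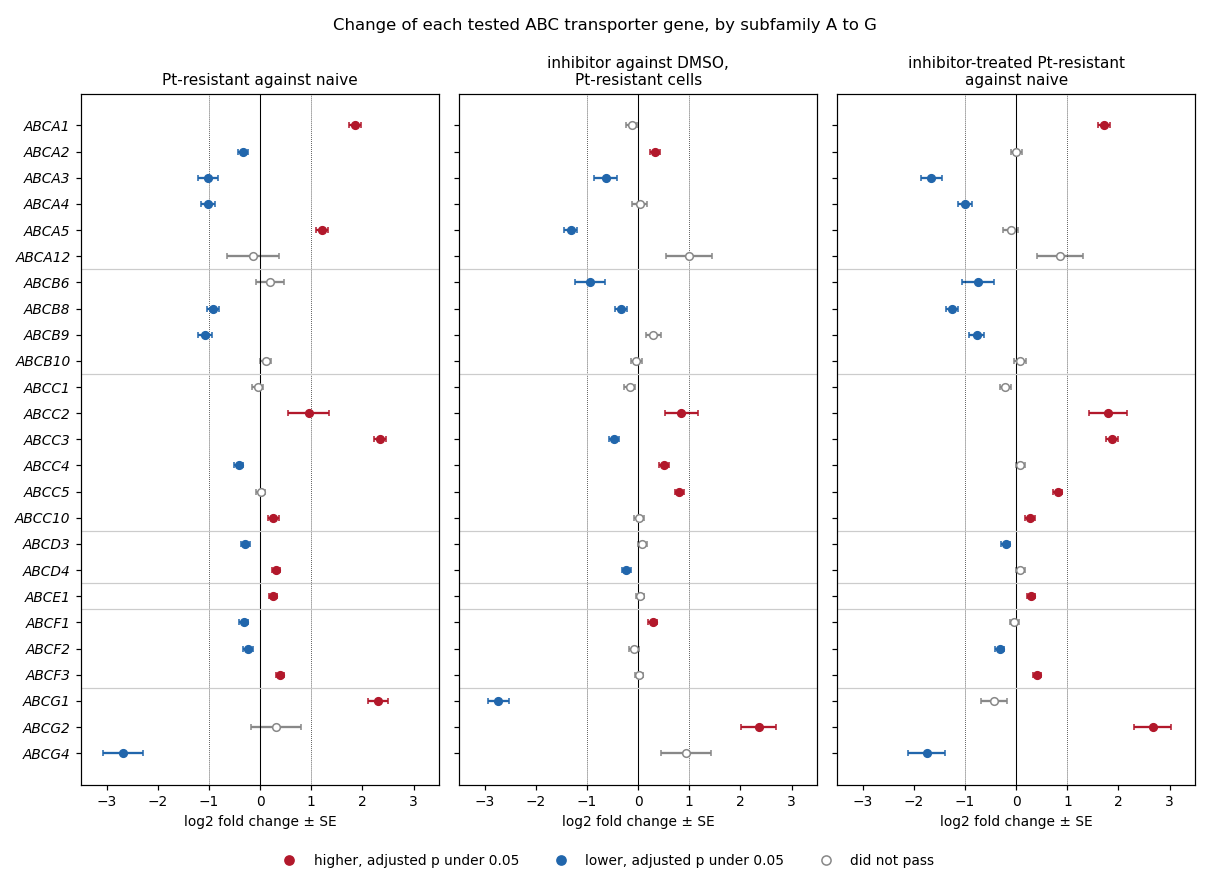
Log2 fold change of each tested member in the 3 comparisons, ordered by subfamily from A to G, with bars of 1 SE (n = 3 libraries per group). Filled points passed the adjusted p of 0.05 and open points did not. ABCG1 stands at 2.31 in Pt-resistant against naive cells and at -2.74 with the inhibitor, while ABCG2 passed with the inhibitor at 2.36. ABCG2 entered the test through inhibitor-treated cells only.

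The sterol exporters had the widest spread. ABCA1 (ENSG00000165029.17, chromosome 9) hands cholesterol and phospholipid to lipid-poor apolipoprotein A-I. It is a classical target of the liver X receptors (NR1H2 and NR1H3), which bind direct repeats of a receptor half-site. Promoter sequences from RefSeq, covering 250 bases before a start site on GRCh38.p14, were at hand for 34 members, 21 of them tested. The direct repeat of half-sites was searched on both strands as 2 copies of GGTNA with 5 letters between them, and it was found in 0.533% of the 35116 promoter windows. Among the members only ABCA1 held it, 69 to 55 bases before the start site, and 30 bases around it are shown because ABCA1 and ABCG1 are the pair of sterol exporters that the results turn on. The stretch is chr9:104928203-104928232 on the minus strand, written 5′ to 3′ with the match in capitals. It overlaps a GENCODE 29 exon, and the transcript of that exon was not looked up.

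ABCA1: acaggcttTGACCGATAGTAACCtctgcgc

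ABCA1 mRNA was at 29.9, 31.6 and 27.6 CPM in inhibitor-treated libraries, 35.4, 33.5 and 28.7 CPM in Pt-resistant libraries and 7.90, 10.4 and 8.88 CPM in naive libraries. Both resistant groups lay above all naive libraries and overlapped each other. The change was 3.60-fold higher in Pt-resistant than naive cells (log2 fold change 1.85 ± 0.12 SE, edgeR adjusted p = 2.77e-12). It did not pass with the inhibitor (log2 fold change -0.13 ± 0.10, edgeR adjusted p = 0.277), and inhibitor-treated cells stayed 3.29-fold above naive ones.

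ABCG1 (ENSG00000160179.19, chromosome 21) passes cholesterol to larger lipoproteins and is another liver X receptor target. It had 1.48, 1.00 and 1.61 CPM in inhibitor-treated libraries, 9.68, 9.48 and 8.57 CPM in Pt-resistant libraries and 1.53, 2.54 and 1.57 CPM in naive libraries. Only the Pt-resistant libraries were high, and inhibitor-treated and naive libraries overlapped. ABCG1 was thus 4.95-fold higher in Pt-resistant than naive cells (log2 fold change 2.31 ± 0.20, edgeR adjusted p = 5.44e-10) and 6.69-fold lower with the inhibitor (-2.74 ± 0.21, edgeR adjusted p = 6.26e-11). Inhibitor-treated against naive cells gave -0.43 ± 0.26 on the log2 scale (edgeR adjusted p = 0.155), which did not pass. Whether liver X receptors act on ABCA1 or ABCG1 in these cells was not tested. The genes of cholesterol handling listed below went both ways in Pt-resistant against naive cells, 2 higher and 6 lower. APOE and MYLIP were among the lower ones (log2 fold changes -4.91 ± 0.17 and -0.25 ± 0.08).

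ABCG4 (ENSG00000172350.10, chromosome 11), a close relative of ABCG1 known from brain, moved the other way. It had 0.237, 1.00 and 0.596 CPM in inhibitor-treated libraries, 0.24, 0.319 and 0.364 CPM in Pt-resistant libraries and 2.16, 1.92 and 2.02 CPM in naive libraries. The naive libraries were above all others. Pt-resistant cells were 6.43-fold lower than naive cells (log2 fold change -2.68 ± 0.39, edgeR adjusted p = 2.99e-06) and inhibitor-treated cells 3.37-fold lower than naive cells, on 17 and 29 counts over the group against 98 in naive cells. ABCG4 passed the filter on low counts through naive cells only, so both differences were partly built in by the filter. The inhibitor against DMSO gave 0.93 ± 0.49 (edgeR adjusted p = 0.103), and without inhibitor-treated replicate 1, the lowest of the 3, it became 1.33 with an adjusted p of 0.02.

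Among the other lipid transporters of subfamily A, ABCA5 (ENSG00000154265.16, chromosome 17), a protein of late endosomes and lysosomes, had the same shape as ABCG1. It was at 5.27, 5.61 and 5.78 CPM in inhibitor-treated libraries, 13.4, 13.8 and 14.4 CPM in Pt-resistant libraries and 5.79, 5.84 and 6.36 CPM in naive libraries. ABCA5 was 2.31-fold higher in Pt-resistant than naive cells (log2 fold change 1.21 ± 0.12, edgeR adjusted p = 1.23e-08) and 2.5-fold lower with the inhibitor (-1.32 ± 0.12, edgeR adjusted p = 3.09e-09). Inhibitor-treated libraries all lay just under the naive ones, a difference that did not pass (-0.11 ± 0.14, edgeR adjusted p = 0.498). Its exons overlap those of the neighbouring member ABCA10 on the same strand, which had at most 2 counts in a library. The counting skips reads that lie under both genes, so how many reads ABCA5 lost there is not known.

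ABCA3 and ABCA4 were lower in resistant cells. ABCA3 (ENSG00000167972.14, chromosome 16), which loads phospholipid into the lamellar bodies of lung epithelium, had 1.30, 2.004 and 1.73 CPM in inhibitor-treated libraries, 2.89, 2.24 and 2.70 CPM in Pt-resistant libraries and 5.06, 5.71 and 5.17 CPM in naive libraries. The 3 groups formed steps with no overlap, at log2 fold changes of -1.02 ± 0.19 for Pt-resistant against naive cells (edgeR adjusted p = 6.60e-05) and -0.64 ± 0.23 for inhibitor against DMSO (edgeR adjusted p = 0.0174). The inhibitor step did not pass without Pt-resistant replicate 1 (-0.56, adjusted p = 0.0612) or without inhibitor-treated replicate 1 (-0.48, adjusted p = 0.0993). ABCA4 (ENSG00000198691.14, chromosome 1), which clears retinal derivatives from photoreceptor membranes, had 5.45, 7.08 and 6.19 CPM in inhibitor-treated libraries, 6.31, 5.80 and 6.23 CPM in Pt-resistant libraries and 13.3, 13.4 and 10.7 CPM in naive libraries. Both resistant groups were below all naive libraries, with a log2 fold change of -1.03 ± 0.14 for Pt-resistant against naive cells (edgeR adjusted p = 7.71e-07) and of 0.03 ± 0.15 with the inhibitor, which did not pass (adjusted p = 0.892).

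ABCA2, an endosomal and lysosomal lipid transporter, averaged 24.7 ± 2.39 CPM in inhibitor-treated, 19.6 ± 1.75 CPM in Pt-resistant and 24.7 ± 1.67 CPM in naive cells (SD, n = 3 each). Only the Pt-resistant group was low (log2 fold changes -0.33 ± 0.10 for Pt-resistant against naive cells and 0.33 ± 0.10 for inhibitor against DMSO, edgeR adjusted p = 0.00787 and 0.00707). ABCA12, the ceramide transporter of skin, had 48 counts over the inhibitor-treated group, 27 over the Pt-resistant group and 26 over the naive group. Its inhibitor comparison gave a log2 fold change of 1.00 ± 0.45 that did not pass (edgeR adjusted p = 0.0562), but passed at 0.0337 to 0.0476 under 3 alternatives, among them the fits without naive replicate 1 and without inhibitor-treated replicate 3. Over the 6 tested genes of subfamily A, 2 were higher and 3 lower in Pt-resistant than naive cells, and 1 was higher and 2 lower with the inhibitor. The share called was 83.3% in the first of these comparisons, against 59.1% of all genes, and 50% in the second, against 62.4%.

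**Figure D3:**
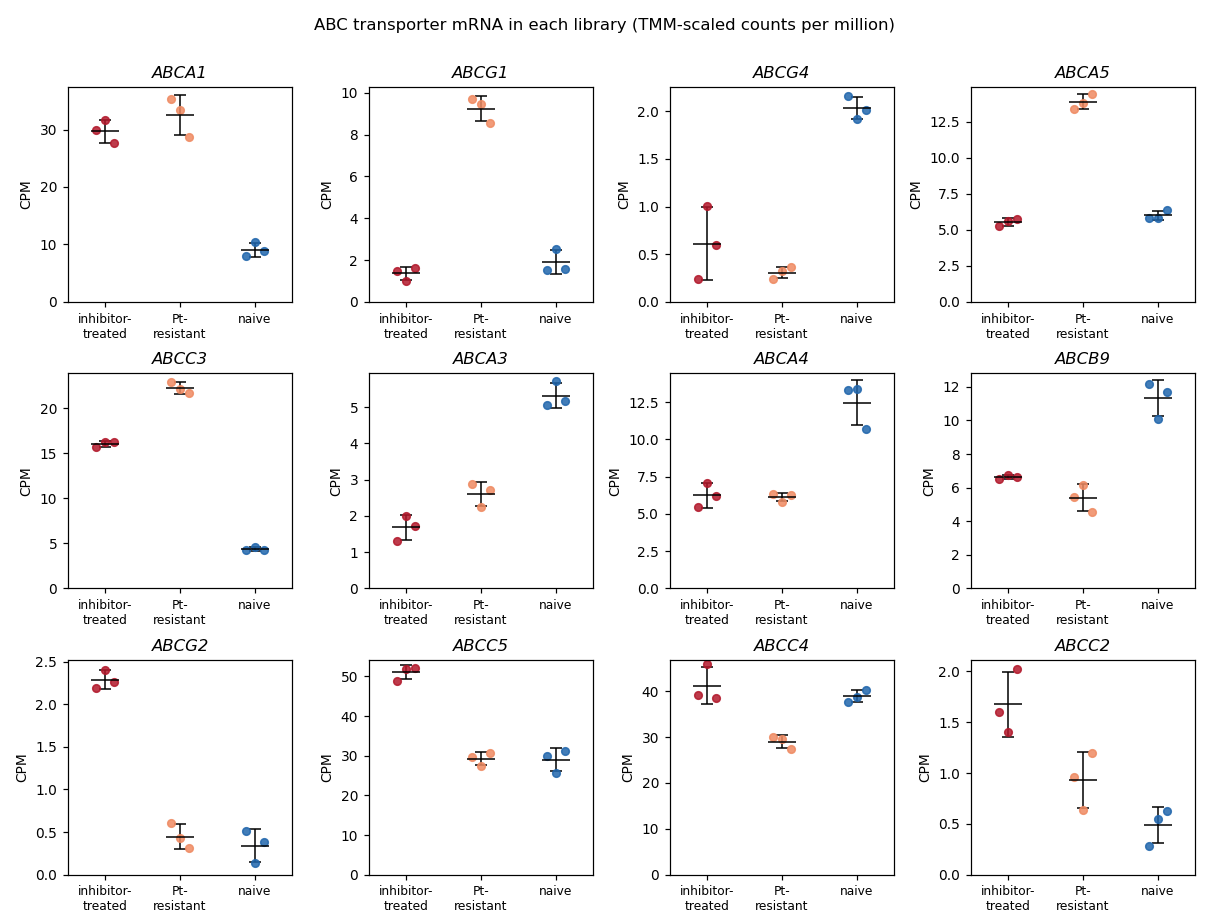
CPM of 12 members in each library, with 1 panel per gene, 1 point per library, a line at the mean and bars of 1 SD (n = 3). In ABCG1 and ABCA5 the Pt-resistant libraries alone are high, in ABCA1 both resistant groups lie above the naive libraries, and in ABCG2 and ABCC5 the inhibitor-treated libraries alone are high.

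Among the drug efflux pumps, ABCC3 was the tested one that rose most in Pt-resistant cells and ABCG2 the tested one that rose most with the inhibitor. ABCC3 (ENSG00000108846.16, chromosome 17), also called MRP3, exports glucuronide conjugates across the basolateral membrane. It had 15.6, 16.2 and 16.3 CPM in inhibitor-treated libraries, 22.9, 22.1 and 21.7 CPM in Pt-resistant libraries and 4.26, 4.61 and 4.22 CPM in naive libraries. The 3 groups did not overlap. ABCC3 was 5.10-fold higher in Pt-resistant than naive cells (log2 fold change 2.35 ± 0.12, edgeR adjusted p = 4.11e-14) and 1.39-fold lower with the inhibitor (-0.47 ± 0.10, edgeR adjusted p = 0.00021), which left inhibitor-treated cells 3.68-fold above naive ones.

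ABCG2 (ENSG00000118777.12, chromosome 4), the breast cancer resistance protein, exports topotecan, mitoxantrone and urate. It had 2.19, 2.41 and 2.26 CPM in inhibitor-treated libraries, 0.601, 0.426 and 0.312 CPM in Pt-resistant libraries and 0.511, 0.137 and 0.378 CPM in naive libraries. These levels rest on 36 to 38 counts in each inhibitor-treated library, 6 to 10 in each Pt-resistant library and 2 to 9 in each naive library. Pt-resistant and naive libraries overlapped (log2 fold change 0.31 ± 0.49, edgeR adjusted p = 0.599), while every inhibitor-treated library was above them. ABCG2 was 5.12-fold higher with the inhibitor (2.36 ± 0.34, edgeR adjusted p = 2.35e-06) and 6.36-fold higher in inhibitor-treated than naive cells (2.67 ± 0.37, edgeR adjusted p = 1.02e-06). ABCG2 passed the filter on low counts through inhibitor-treated cells only, so both differences were partly built in by the filter. The RefSeq table holds 5 start sites for ABCG2, and 120 bases upstream of 1 of them are shown because ABCG2 had the largest rise under the inhibitor among the tested members. They run over chr4:88159025-88159144 on the minus strand of GRCh38.p14, outside GENCODE 29 exons, 5′ to 3′, with an E-box (CACGTG, the same on both strands) in capitals, 121 to 116 bases before that start site.

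ABCG2: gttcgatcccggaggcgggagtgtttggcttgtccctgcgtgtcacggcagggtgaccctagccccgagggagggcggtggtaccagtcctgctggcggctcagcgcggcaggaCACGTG

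An E-box lay in 6.34% of all promoter windows and, counted by gene, in 7.73% of genes. It was found in 7 of the 21 tested members with a promoter, which were ABCA1, ABCA12, ABCB6, ABCB9, ABCC10, ABCF1 and ABCG2. The antioxidant response element of NFE2L2, searched as TGACNNNGC on both strands, lay in 10.9% of windows and 13.2% of genes, and in 9 of the 21 tested members, namely ABCA2, ABCA3, ABCB6, ABCB9, ABCC4, ABCC10, ABCD4, ABCF1 and ABCG4. For Pt-resistant against naive cells, these 9 held members that were higher (ABCC10, ABCD4), lower (ABCA2, ABCA3, ABCB9, ABCC4, ABCF1, ABCG4) and not past the threshold (ABCB6). Over all 34 members with a promoter, tested or not, the E-box was found in 8 and the antioxidant response element in 9. The shares of genes cover every gene with a promoter, expressed here or not, so they are no matched background for the tested members. A match of letters is a description of the sequence and not a binding site.

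The remaining multidrug resistance proteins split into those that differed by the inhibitor and those that did not. ABCC5 (ENSG00000114770.17, chromosome 3), or MRP5, which exports cyclic nucleotides and nucleotide analogs, had 49.0, 51.9 and 52.2 CPM in inhibitor-treated libraries, 29.6, 27.4 and 30.8 CPM in Pt-resistant libraries and 29.9, 25.7 and 31.2 CPM in naive libraries. Pt-resistant and naive libraries overlapped and inhibitor-treated libraries stood 1.74-fold above the Pt-resistant ones (log2 fold change 0.80 ± 0.09, edgeR adjusted p = 4.57e-08). ABCC4 (ENSG00000125257.16, chromosome 13), or MRP4, an exporter of cyclic nucleotides and prostaglandins, had 39.3, 45.9 and 38.5 CPM in inhibitor-treated libraries, 29.99, 29.6 and 27.5 CPM in Pt-resistant libraries and 37.7, 38.7 and 40.3 CPM in naive libraries. Here the Pt-resistant libraries alone were low, at a log2 fold change of -0.42 ± 0.09 for Pt-resistant against naive cells (edgeR adjusted p = 0.000302) and of 0.50 ± 0.09 for inhibitor against DMSO (edgeR adjusted p = 3.41e-05).

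ABCC2 (ENSG00000023839.12, chromosome 10), or MRP2, the apical pump for conjugates that is known to export cisplatin bound to glutathione, was scarce. It had 1.60, 1.40 and 2.03 CPM in inhibitor-treated libraries, 0.962, 0.639 and 1.19 CPM in Pt-resistant libraries and 0.284, 0.55 and 0.63 CPM in naive libraries. The groups formed 3 steps with no overlap, on 82 counts over the inhibitor-treated, 51 over the Pt-resistant and 23 over the naive group. The first step was close to the threshold (log2 fold change 0.95 ± 0.40 for Pt-resistant against naive cells, edgeR adjusted p = 0.0463). It did not pass under 12 of 17 alternatives, at adjusted p of 0.0517 to 0.22, and the fits without naive replicate 1 or 2, without Pt-resistant replicate 1 or 3 and without any 1 of the inhibitor-treated libraries were among them. The inhibitor step of 0.85 ± 0.32 (edgeR adjusted p = 0.0234) did not pass with DESeq2, without Pt-resistant replicate 2 or without inhibitor-treated replicate 3 (adjusted p of 0.0564 to 0.122). Inhibitor-treated against naive cells gave 1.79 ± 0.37 (edgeR adjusted p = 0.000184), 3.46-fold. ABCC2 did not pass the filter on low counts in naive cells, so its differences from them were partly built in by the filter.

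ABCC1 (ENSG00000103222.20, chromosome 16), or MRP1, had 16.0, 20.7 and 22.6 CPM in inhibitor-treated libraries, 23.2, 21.6 and 21.7 CPM in Pt-resistant libraries and 22.1, 23.9 and 22.6 CPM in naive libraries. All groups overlapped, and neither Pt-resistant against naive cells (log2 fold change -0.05 ± 0.11, edgeR adjusted p = 0.729) nor the inhibitor (-0.16 ± 0.11, edgeR adjusted p = 0.198) passed. Inhibitor-treated against naive cells gave -0.21 ± 0.11 (edgeR adjusted p = 0.1), which passed with library size alone and without inhibitor-treated replicate 3 (log2 fold changes of -0.27 and -0.32, adjusted p of 0.0367 and 0.0272 in that order). ABCC10 (ENSG00000124574.15, chromosome 6), or MRP7, an exporter of taxanes, had 20.5, 23.6 and 25.4 CPM in inhibitor-treated libraries, 22.6, 24.6 and 21.9 CPM in Pt-resistant libraries and 18.5, 20.1 and 19.2 CPM in naive libraries. It was 1.20-fold higher in Pt-resistant than naive cells (log2 fold change 0.26 ± 0.10, edgeR adjusted p = 0.0308). That call was lost under 5 of 17 alternatives, which left out naive replicate 1, naive replicate 3 or Pt-resistant replicate 2 or changed the scaling or the filter (adjusted p of 0.0514 to 0.134). Over the 6 tested genes of subfamily C, 3 were higher and 1 lower in Pt-resistant than naive cells, the same counts held with the inhibitor, and 4 were higher and none lower in inhibitor-treated than naive cells, with 2 that did not pass. In each comparison 66.7% of subfamily C was called, against 59.1%, 62.4% and 63.4% of all genes. The summed CPM of subfamily C was 142 to 160 in inhibitor-treated, 125 to 130 in Pt-resistant and 113 to 118 in naive libraries, with no overlap between the groups. Its members did not rise together. From naive to Pt-resistant cells, mean ABCC3 rose from 4.36 to 22.24 CPM while mean ABCC4 fell from 38.87 to 29.02 CPM. With the inhibitor, mean ABCC5 rose from 29.25 to 51.02 CPM while mean ABCC3 fell from 22.24 to 16.04 CPM. Pt-resistant and naive sums also did not overlap for subfamilies A, B, E and G, with B lower and the others higher in Pt-resistant cells. Such sums were not tested against a background.

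No tested member of subfamily B was higher in Pt-resistant than naive cells, and 2 of the 4 tested were lower, a share of 50% against 59.1% of all genes called in this comparison. ABCB9 (ENSG00000150967.19, chromosome 12), a lysosomal peptide transporter related to the TAP proteins, had 6.51, 6.75 and 6.61 CPM in inhibitor-treated libraries, 5.41, 6.18 and 4.57 CPM in Pt-resistant libraries and 12.2, 10.1 and 11.7 CPM in naive libraries. Both resistant groups were below all naive libraries (log2 fold change -1.08 ± 0.14 for Pt-resistant against naive cells, edgeR adjusted p = 5.23e-07). With the inhibitor the value was 0.30 ± 0.15 (edgeR adjusted p = 0.0833), which passed only without Pt-resistant replicate 2 (0.41, adjusted p = 0.0355).

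The members of subfamily B that sit in mitochondria or handle porphyrins did not move together. ABCB8, of the inner mitochondrial membrane, averaged 16.4 ± 3.08 CPM in inhibitor-treated, 20.7 ± 2.5 CPM in Pt-resistant and 39.3 ± 1.14 CPM in naive cells (SD, n = 3 each), a log2 fold change of -0.92 ± 0.11 for Pt-resistant against naive cells (edgeR adjusted p = 1.71e-07). Its further decrease with the inhibitor (-0.34 ± 0.12, edgeR adjusted p = 0.0156) came with overlapping groups and was lost without Pt-resistant replicate 3, inhibitor-treated replicate 1 or inhibitor-treated replicate 2 (adjusted p of 0.0748 to 0.113). ABCB6, which carries porphyrins, averaged 0.881 ± 0.161 CPM in inhibitor-treated, 1.70 ± 0.206 CPM in Pt-resistant and 1.49 ± 0.319 CPM in naive cells and was 1.92-fold lower with the inhibitor (-0.94 ± 0.30, edgeR adjusted p = 0.00842). ABCB10, which supports heme synthesis from the inner mitochondrial membrane, averaged 18.4 ± 1.79 CPM in inhibitor-treated, 18.8 ± 0.512 CPM in Pt-resistant and 17.4 ± 2.61 CPM in naive cells and passed in none of the 3 comparisons (edgeR adjusted p of 0.431, 0.786 and 0.614). It has processed copies elsewhere in the genome, so its count is uncertain.

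The tested members of subfamilies D, E and F had changes smaller than 1.5-fold in all 3 comparisons. ABCD3, which imports branched fatty acids and bile acid precursors, averaged 161 ± 1.41 CPM in inhibitor-treated, 152 ± 16.2 CPM in Pt-resistant and 186 ± 15.2 CPM in naive cells, and its Pt-resistant and naive libraries overlapped although the comparison passed (log2 fold change -0.29 ± 0.08, edgeR adjusted p = 0.00478). ABCD4, which with LMBRD1 releases cobalamin from lysosomes, averaged 33.1 ± 2.02 CPM in inhibitor-treated, 38.8 ± 1.25 CPM in Pt-resistant and 31.3 ± 1.55 CPM in naive cells. It was higher in Pt-resistant than naive cells (0.31 ± 0.09, edgeR adjusted p = 0.00332) and lower with the inhibitor (-0.23 ± 0.09, edgeR adjusted p = 0.0214), a call that was lost under 4 of 17 alternatives, among them the fits without Pt-resistant replicate 1 or 3 and without inhibitor-treated replicate 3 (adjusted p of 0.0548 to 0.113).

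ABCE1 averaged 222 ± 4.47 CPM in inhibitor-treated, 217 ± 12.03 CPM in Pt-resistant and 182 ± 10.3 CPM in naive cells, so both resistant groups lay above all naive libraries (log2 fold change 0.25 ± 0.07 for Pt-resistant against naive cells, edgeR adjusted p = 0.00622). ABCF3 had the same order, at 65.9 ± 2.06 CPM in inhibitor-treated, 65.2 ± 3.44 CPM in Pt-resistant and 49.9 ± 2.26 CPM in naive cells (0.38 ± 0.08, edgeR adjusted p = 0.000194). ABCF1, which binds the initiation factor eIF2, averaged 38.5 ± 1.25 CPM in inhibitor-treated, 31.8 ± 2.53 CPM in Pt-resistant and 39.6 ± 2.79 CPM in naive cells and was low in Pt-resistant cells alone. Its log2 fold change was -0.32 ± 0.09 for Pt-resistant against naive cells (edgeR adjusted p = 0.00362) and 0.28 ± 0.09 for inhibitor against DMSO (edgeR adjusted p = 0.00852), or 0.23 with an adjusted p of 0.0597 without Pt-resistant replicate 3. ABCF2 averaged 38.5 ± 3.25 CPM in inhibitor-treated, 40.9 ± 4.12 CPM in Pt-resistant and 48.2 ± 2.42 CPM in naive cells (-0.24 ± 0.09 for Pt-resistant against naive cells, edgeR adjusted p = 0.0268), a call that did not hold when Pt-resistant replicate 2, Pt-resistant replicate 3 or naive replicate 2 was left out (adjusted p of 0.0759 to 0.141). ABCE1 passed in neither direction with the inhibitor (0.03 ± 0.07, edgeR adjusted p = 0.708), nor did ABCF2 (-0.08 ± 0.09) or ABCF3 (0.02 ± 0.08).

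The genes that regulate or work with these transporters were counted over lists, and the share called is read against 59.1% of all genes in Pt-resistant against naive cells and 62.4% for inhibitor against DMSO. Of 15 tested regulators of transporter genes, 6 were higher and 2 lower in Pt-resistant than naive cells, and 5 were higher and 6 lower with the inhibitor (53.3% and 73.3% called). NFE2L2 (NRF2), which drives antioxidant and several efflux genes, averaged 202 CPM in inhibitor-treated, 482 CPM in Pt-resistant and 191 CPM in naive cells, with log2 fold changes of 1.34 ± 0.12 for Pt-resistant against naive cells and -1.25 ± 0.12 for inhibitor against DMSO (edgeR adjusted p = 8.35e-10 and 2.22e-09). HIF1A averaged 881 CPM in inhibitor-treated, 761 CPM in Pt-resistant and 492 CPM in naive cells (0.63 ± 0.08 for Pt-resistant against naive cells, edgeR adjusted p = 9.31e-07). RXRB averaged 5.71, 9.54 and 8.17 CPM in the same order of groups and was lower with the inhibitor (-0.74 ± 0.14, edgeR adjusted p = 9.85e-05). Of the liver X receptors, NR1H3 averaged 8.35 CPM in inhibitor-treated, 5.17 CPM in Pt-resistant and 5.89 CPM in naive cells and rose with the inhibitor (0.70 ± 0.15, edgeR adjusted p = 0.000294). NR1H2, given here after its values were seen because it is the other liver X receptor, averaged 243 CPM in inhibitor-treated, 254 CPM in Pt-resistant and 209 CPM in naive cells. It was higher in Pt-resistant than naive cells (0.29 ± 0.07, edgeR adjusted p = 0.00167), and the inhibitor comparison did not pass (-0.06 ± 0.07, edgeR adjusted p = 0.457). The xenobiotic receptors NR1I2 and NR1I3 could not be tested, and NR1I2 had no count in any library.

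Of 11 genes of cholesterol handling, 2 were higher and 6 lower in Pt-resistant than naive cells, while 5 were higher and 2 lower with the inhibitor (72.7% and 63.6% called). APOE, an acceptor of exported cholesterol, averaged 2.04 CPM in inhibitor-treated, 0.908 CPM in Pt-resistant and 27.6 CPM in naive cells, with a log2 fold change of -4.91 ± 0.17 for Pt-resistant against naive cells (edgeR adjusted p = 5.37e-17). SOAT1, which esterifies cholesterol, averaged 173 CPM in inhibitor-treated and 60.0 CPM in Pt-resistant cells, and NCEH1, which hydrolyses the esters, 97.7 CPM in inhibitor-treated and 20.8 CPM in Pt-resistant cells. Both rose with the inhibitor (1.53 ± 0.09 and 2.23 ± 0.08, edgeR adjusted p = 5.87e-13 and 7.04e-16). Of 10 tested drug uptake carriers, the counterpart of the efflux pumps, none was higher and 8 were lower in Pt-resistant than naive cells (80% called, against 29.8% higher and 29.4% lower among all genes). With the inhibitor, 5 were higher and 3 lower (80% called, against 31.9% higher and 30.5% lower among all genes). The prostaglandin carrier SLCO2A1 averaged 10.0 CPM in inhibitor-treated, 0.756 CPM in Pt-resistant and 2.98 CPM in naive cells (-2.02 ± 0.30 for Pt-resistant against naive cells and 3.76 ± 0.25 for inhibitor against DMSO, edgeR adjusted p = 3.50e-06 and 8.53e-12). SLCO2A1 did not pass the filter on low counts in Pt-resistant cells, with 40 counts over that group. SLCO2B1, also called in both comparisons, passed in no group alone. It had 31 counts over the inhibitor-treated, 4 over the Pt-resistant and 25 over the naive group. Differences in both carriers were thus partly built in by the filter. SLC29A2, a nucleoside carrier, averaged 19.2 CPM in inhibitor-treated, 29.3 CPM in Pt-resistant and 74.3 CPM in naive cells and was lower both in Pt-resistant against naive cells (-1.35 ± 0.09) and with the inhibitor (-0.61 ± 0.10, edgeR adjusted p = 1.31e-11 and 1.15e-05).

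The partners of the intracellular members changed in both directions. Of 16 genes of heme and iron-sulfur synthesis, 3 were higher and 8 lower in Pt-resistant than naive cells, and 5 were higher and 7 lower with the inhibitor (68.8% and 75% called). CPOX, an enzyme of heme synthesis, averaged 34.5 CPM in inhibitor-treated, 15.3 CPM in Pt-resistant and 30.6 CPM in naive cells (log2 fold change -1.0 ± 0.11 for Pt-resistant against naive cells and 1.17 ± 0.11 for inhibitor against DMSO, edgeR adjusted p = 6.89e-08 and 4.58e-09), so Pt-resistant cells were the lowest group. Of 12 peroxisome and cobalamin genes, 5 were higher and 2 lower in Pt-resistant than naive cells, and 3 were higher and 4 lower with the inhibitor (58.3% called in both). Of 12 translation genes that work with subfamilies E and F, 5 were higher and 2 lower in Pt-resistant than naive cells, and 2 were higher and 6 lower with the inhibitor (58.3% and 66.7% called). GCN1 had the largest change of these in Pt-resistant against naive cells and was lower (-0.86 ± 0.09, edgeR adjusted p = 2.26e-08). It averaged 129 CPM in inhibitor-treated, 109 CPM in Pt-resistant and 198 CPM in naive cells. PELO, which acts with ABCE1 on stalled ribosomes, averaged 40.3 CPM in inhibitor-treated, 48.5 CPM in Pt-resistant and 28.1 CPM in naive cells (0.79 ± 0.09 for Pt-resistant against naive cells, edgeR adjusted p = 9.53e-08). PELO was lower with the inhibitor (-0.26 ± 0.09, edgeR adjusted p = 0.013).

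**Figure D4:**
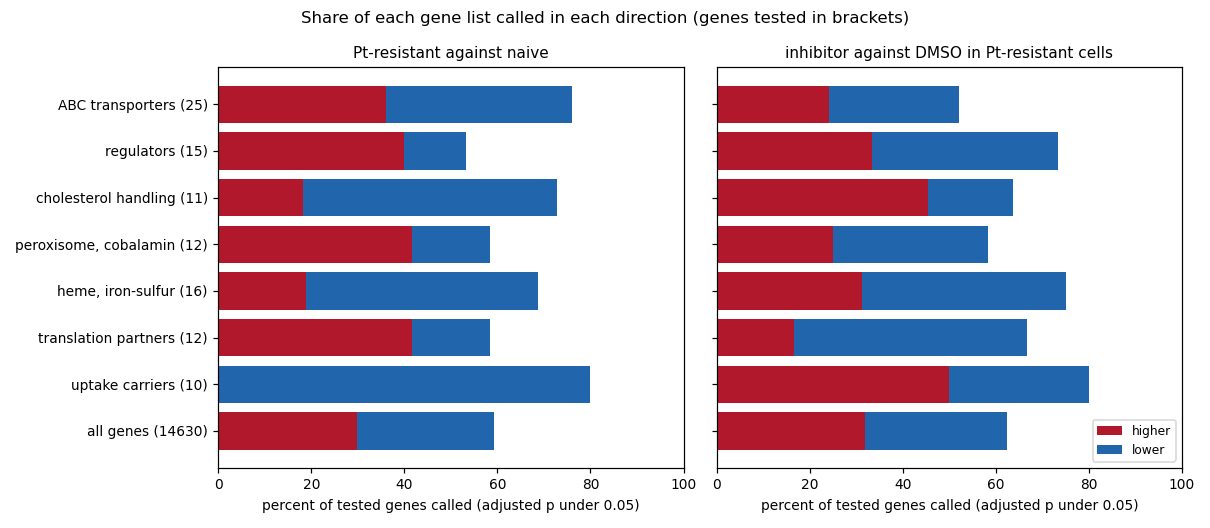
Percent of the tested genes of each list that passed the adjusted p of 0.05, split into higher and lower, for Pt-resistant against naive cells (left) and inhibitor against DMSO in Pt-resistant cells (right). The bar for all 14630 genes gives the background, 59.1% on the left and 62.4% on the right, against 76% and 52% for the ABC transporters.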

How the data were processed

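Cells were seeded in wells in triplicate, and a directional kit, which marks the strand, was used for the libraries. As the study's methods and the submitters' processing notes state, FastQC, STAR and STAR's own gene counting were applied, and that counting skips a read with several alignments or with more than 1 gene under it. The authors deposited raw counts, whole numbers without any scaling. Build, annotation and strand column of the count table: not given in the sources used here. Gene positions are therefore given as chromosomes only. All columns matched a library (0 not mapped). A stable Ensembl ID gave a symbol for 61369 of 61487 genes, and the 118 others held 0.128% of counts. Gene type, exon length and exon overlap came from GENCODE 29. Exons overlap another gene on the same strand for 6 members, among them ABCB6, ABCD4 and ABCF2, and on the other strand for 11.

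The main tool was edgeR 4.0.16 under R 4.3.3. The filterByExpr filter, with 10 as its count minimum, kept 14630 genes (99.88% of counts), and scaling was by TMM. All 9 libraries entered 1 quasi-likelihood model of the 3 groups. P-values were adjusted by Benjamini-Hochberg over all genes tested, at a threshold of 0.05, and each SE is the log2 fold change divided by the root of its F statistic. The biological coefficient of variation was 7.66%. CPM are relative to the TMM-scaled total. Floors are 3 counts over a group and cover counting error only. The study used DESeq2. Alternatives were DESeq2 1.42.0, limma-voom (limma 3.58.1), RLE size factors, library size alone, other filters, fits on the compared groups, a replicate block, each library left out and a minimum fold of 2. Scripts were checked on simulated counts. No labels name a batch. The members and lists were chosen with earlier results of these data known. Members were described library by library where they passed with at least a 2-fold change in Pt-resistant against naive cells or inhibitor against DMSO and reached 1 CPM, and so were the drug efflux members. Up to 4 genes per list could be named, by the size of change among those called. Protein sequences were not used here, and 3 genes of the family, with the results that need them, are not reported here.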

Additional observations from a re-analysis of the deposited data

How the results depend on the processing

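Over up to 17 alternatives, no called member changed direction. Of the 19 members called in Pt-resistant against naive cells 16 kept the call in all alternatives, of the 13 called for inhibitor against DMSO 8 did, and of the 16 called in inhibitor-treated against naive cells 13 did. Besides those given with their genes, the calls lost in inhibitor-treated against naive cells were ABCB6 (8 alternatives, adjusted p of 0.0521 to 0.173, which were DESeq2, limma-voom, no low-count filter, the replicate block, and the fits without naive replicate 2 or 3 or inhibitor-treated replicate 2 or 3), ABCC10 (6 alternatives, 0.0599 to 0.14) and ABCD3 (5 libraries left out, 0.0719 to 0.151). With a 2-fold minimum, 985 genes were higher and 1335 lower in Pt-resistant against naive cells (4 and 4 members), 1673 and 952 for inhibitor against DMSO (1 and 2 members), and 1564 and 1339 in inhibitor-treated against naive cells (4 and 4 members). Leaving out 1 library at a time gave 7 to 8 members higher and 9 to 10 lower in Pt-resistant against naive cells, 5 to 7 and 5 to 7 for inhibitor against DMSO, and 7 to 8 and 6 to 8 in inhibitor-treated against naive cells.

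Direction changed only for members that had not passed in that comparison. In Pt-resistant against naive cells, ABCA12 became 0.0122 with limma-voom and ABCC5 -0.0129 with library size alone, -0.000168 with no filter and -0.00207 with only the groups compared. For inhibitor against DMSO, library size alone gave -0.00841 for ABCA4, -0.0261 for ABCC10 and -0.0178 for ABCF3. In inhibitor-treated against naive cells, ABCA2 became -0.00076 with RLE size factors, -0.0588 with library size alone, -0.000417 with DESeq2, -0.00329 with limma-voom, -0.0126 with no filter and -0.00454 with only the groups compared. Leaving out 1 library gave, in Pt-resistant against naive cells, -0.544 to 0.384 for ABCA12, -0.0144 to 0.179 for ABCB10, -0.0713 to 0.068 for ABCC5 and -0.0304 to 0.729 for ABCG2. For inhibitor against DMSO it gave -0.071 to 0.118 for ABCA4, -0.0939 to 0.0421 for ABCB10, -0.0628 to 0.0921 for ABCC10, -0.143 to 0.00299 for ABCF2 and -0.0273 to 0.04996 for ABCF3, and in inhibitor-treated against naive cells -0.0517 to 0.0841 for ABCA2 and -0.0511 to 0.150 for ABCB10. The cause was not tested.

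Libraries with the same replicate number correlated at -0.0758 to 0.0995 in their deviations from the group means (9 pairs), and those with different numbers at -0.112 to 0.0785, so the numbers do not pair the samples. With the replicate block, 9 members were higher and 10 lower in Pt-resistant against naive cells, 6 and 7 for inhibitor against DMSO, and 8 and 7 in inhibitor-treated against naive cells, where ABCB6 lost its call (adjusted p = 0.0521).

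Depth limits what can be said of the 17 members not tested and of ABCA12, ABCC2, ABCG2 and ABCG4, whose levels rest on few counts. Reads shared with a pseudogene copy or an overlapping gene were left out by the counting, which bears on ABCC6, ABCB10 and ABCF2 by their copies and on ABCA5, ABCB6, ABCD4 and ABCF2 by overlap on the same strand. The strand column of the counts is not known. If strand was ignored, the other-strand overlaps of 11 members bear on them as well, among them ABCA12, ABCB8, ABCB9, ABCC10 and ABCE1.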

Other observations

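Relatives of the family outside the rule were read in the same fit. TAP1, a subunit of the transporter that carries peptides for antigen presentation, averaged 2.73 CPM in inhibitor-treated, 1.71 CPM in Pt-resistant and 1.21 CPM in naive cells. It was higher with the inhibitor (log2 fold change 0.67 ± 0.23, edgeR adjusted p = 0.0145) and higher in inhibitor-treated than naive cells (1.17 ± 0.25, edgeR adjusted p = 0.000278). Its partner TAP2 had a mean of 0 CPM in both resistant groups and 0.0189 CPM in naive cells, from 1 count in naive replicate 1. The counting skips reads with more than 1 gene under them, and overlaps were looked up for members only. Whether TAP2 mRNA was absent was therefore not tested. Of the pseudogenes, ABCA17P averaged 0.695 CPM in inhibitor-treated, 0.0378 CPM in Pt-resistant and 0.574 CPM in naive cells (-3.74 ± 0.77 for Pt-resistant against naive cells and 4.0 ± 0.74 for inhibitor against DMSO, edgeR adjusted p = 0.000213 and 5.67e-05). ABCA17P had 34 counts over the inhibitor-treated, 2 over the Pt-resistant and 28 over the naive group. It passed the filter on low counts in no group alone, and its Pt-resistant mean lay under the floor of 0.0549 CPM. ABCA11P averaged 0.0865 CPM in inhibitor-treated, 0.712 CPM in Pt-resistant and 1.07 CPM in naive cells, and it was lower with the inhibitor (-3.0 ± 0.63, edgeR adjusted p = 0.000238). It had 4, 39 and 51 counts in the same order of groups and passed the filter through naive cells only. Differences in both pseudogenes were thus partly built in by the filter. PRMT5, the target of the inhibitor, averaged 117 CPM in inhibitor-treated, 117 CPM in Pt-resistant and 121 CPM in naive cells and passed in no comparison.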
